A study of Homo sapiens with 6 samples.

Results

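Zinc finger genes with the symbol ZNF and a number were followed in the human neuroblastoma cell line SH-SY5Y after the triazine herbicide atrazine and after the vehicle DMSO. Each group had 3 Illumina bead arrays, the labels name no other treatment, and the sources used here give neither the dose nor the length of exposure. The members were chosen by their DMSO values: a probe entered when its platform-annotation symbol was ZNF and digits, with or without a letter after them, and each of the 3 DMSO arrays detected it (detection p-value under 0.05). Of 470 ZNF probes on the array, 331 met this rule, and they stood for 313 genes. The whole array held 22184 probes. No label ties a replicate to a culture of its own, and the spread behind each p-value may therefore be technical.

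Most ZNF genes encode proteins with strings of C2H2 zinc fingers, in which each finger holds a zinc ion and contacts a few bases of DNA. Many of them carry a KRAB domain near the amino terminus. That domain recruits the corepressor TRIM28, which brings the histone methyltransferase SETDB1 and HP1 proteins and lays down closed chromatin, above all at retroelements. The family grew by local duplication, and a large share of the human members lies in clusters on chromosome 19. Other proteins with a ZNF symbol bind promoters as activators or work on RNA, ribosomes or the spindle.

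Atrazine arrays were dimmer as a whole. Their mean raw intensities were 235, 254 and 311, against 587, 939 and 532 on the DMSO arrays, and they detected 43.6% to 52.0% of all probes, against 58.9% to 59.8%. Atrazine array 2 detected the fewest. Why the atrazine arrays were dimmer was not tested, and the sources used here give no chip positions. For the change of any gene, fewer cells of a type and less RNA per cell cannot be told apart in such bulk samples. Changes below are differences of background-corrected, quantile-normalized log2 intensity, atrazine minus DMSO, with limma p-values adjusted over the 12969 probes that were detected on all 3 arrays of at least 1 group. Quantile normalization gives every array the same distribution of values, so a change is relative to the other probes. When arrays were scaled to equal medians instead, the median change of all 12969 probes lay 0.72 lower on the log2 scale.

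The 331 ZNF probes were mostly lower in atrazine. By the adjusted p, 207 (62.5%) fell, 40 (12.1%) rose and 84 did not pass, where 39.6% of all tested probes fell and 27.7% rose. Among the 11062 other named probes chosen by the same DMSO rule, 40.4% fell and 25.4% rose. The median change was -0.58 over the ZNF probes, with quartiles of -0.997 and -0.08, against -0.20 over the other named probes. All 3 atrazine arrays lay below all 3 DMSO arrays for 217 ZNF probes (65.6%) and above them for 46 (13.9%), where the shares over all tested probes were 44.5% and 30.5%. Fitted falls of 2-fold or more were seen for 82 ZNF probes (24.8%) and rises of that size for 15 (4.53%), against 12.8% and 10.8% of the other named probes. Choosing probes by detection in DMSO favours probes that are high there, so these counts are read beside the other named probes, which were chosen in the same way.

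**Figure D1:**
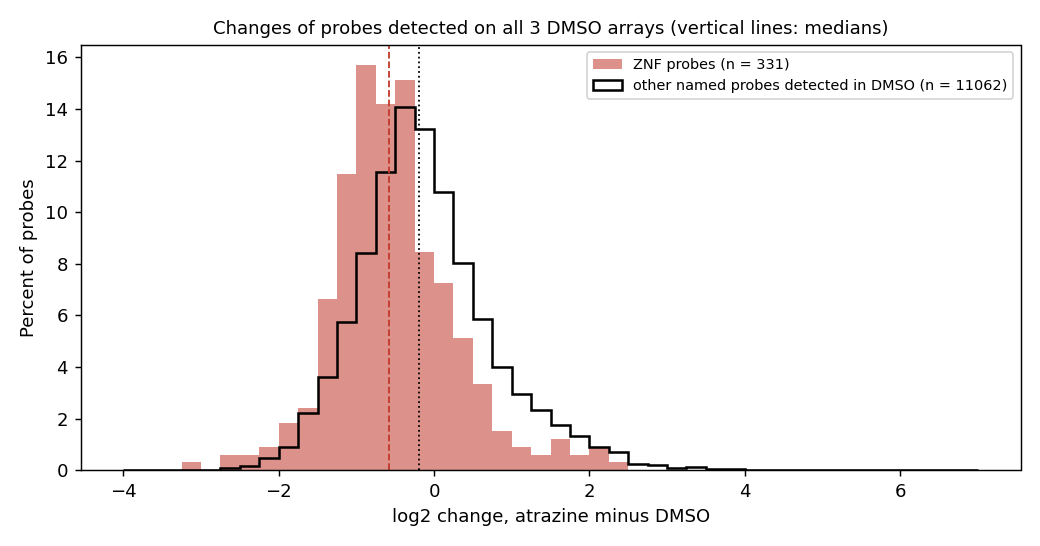
Distribution of the log2 change, atrazine minus DMSO, for the 331 ZNF probes (filled) and the 11062 other named probes detected on all 3 DMSO arrays (outline), as a percent of each set; vertical lines are medians. The ZNF probes centre on -0.58 and the other probes on -0.20, and few ZNF probes lie in the right-hand tail.

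With no rule on detection at all, 235 of the 470 ZNF probes were lower and 52 higher (50% and 11.1%), against 25.2% and 22.7% of 19245 other named probes. Most of these falls were the members' own. Of the 139 ZNF probes left out by the DMSO rule, 32 were lower (23.02%) and 11 higher, with a median of -0.03, and 98 were detected on none of the 6 arrays.

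The 10 largest falls came from ZNF789, ZNF480, ZNF425, ZNF69, ZNF235, ZNF239, ZNF200, ZNF143, ZNF439 and ZNF124. They are ordered by fitted change, which has no meaning as an order among values at background. Most of these proteins are known mainly from their sequence, with KRAB domains in many. ZNF143 is the exception, a widely used activator that binds promoters of messenger and small nuclear RNA genes. The brightest ZNF789 probe had normalized values of 5.77, 5.10 and 5.96 in atrazine, against 8.67, 8.65 and 8.59 in DMSO. The groups lay far apart, and the change was -3.03 ± 0.21 (SE, n = 3 each; limma adjusted p = 2.9e-05), a fitted 8.15-fold fall. The probe was close to background in atrazine, with detection p-values of 0.048, 0.267 and 0.031, so the size of this fall rests on dim values. A second ZNF789 probe, detected on all 6 arrays, fell by 0.91 on the log2 scale, and the remaining one was also called lower but was detected on no atrazine array.

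ZNF480 had values of 6.03, 5.37 and 6.08 in atrazine, against 8.08, 8.57 and 8.49 in DMSO, a change of -2.56 ± 0.22 (SE). ZNF239, detected on all 6 arrays, had 6.77, 6.70 and 6.53 in atrazine, against 9.04, 8.91 and 8.78 in DMSO, a change of -2.24 ± 0.12. ZNF143 had 5.73, 5.91 and 5.93 in atrazine, against 7.78, 7.89 and 7.91 in DMSO, a change of -2.005 ± 0.10 (limma adjusted p = 9e-06), and was detected on 1 atrazine array. In none of these did the groups overlap. ZNF200 changed by -2.11 ± 0.14 and ZNF439 by -1.94 ± 0.24, each detected on 2 atrazine arrays.

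For 4 of the 10, ZNF425, ZNF69, ZNF235 and ZNF124, no atrazine array detected the probe. ZNF235 had values of 5.23, 5.55 and 5.64 in atrazine, against 7.78, 7.84 and 7.79 in DMSO. Measured against the dimmest detected signal on each atrazine array, or the probe's own value where that was higher, this is at least 3.75-fold lower. The same bound was at least 3.37-fold lower for ZNF425, at least 2.36-fold for ZNF69 and at least 2.35-fold for ZNF124. ZNF300, the other one among the 5 brightest in DMSO of the probes lost in this way, was at least 2.28-fold lower.

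The 10 largest rises came from ZNF180, ZNF557, ZNF226, ZNF583, ZNF148, ZNF219, ZNF638, ZNF417, ZNF385A and ZNF268. ZNF180 had values of 9.95, 10.52 and 10.22 in atrazine, against 7.90, 7.66 and 7.82 in DMSO. Every atrazine array was brighter, and the change was 2.43 ± 0.16 (SE, n = 3 each; limma adjusted p = 2.2e-05), a 5.40-fold rise. ZNF557 changed by 2.23 ± 0.19 and ZNF583 by 2.15 ± 0.12. The brighter ZNF226 probe changed by 2.23 ± 0.16, while the gene's other member probe gave -0.20 and did not pass.

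ZNF148, which binds GC-rich promoter elements, had 11.46, 11.51 and 11.45 in atrazine, against 9.66, 9.78 and 9.37 in DMSO, a change of 1.87 ± 0.13 (SE). ZNF219, another zinc finger transcription factor, changed by 1.78 ± 0.10. ZNF638, a nuclear RNA-binding protein linked to splicing and to silencing of unintegrated retroviral DNA, changed by 1.69 ± 0.12. ZNF385A, which binds RNA and p53, had 8.14, 7.94 and 8.10 in atrazine, against 6.64, 6.22 and 6.51 in DMSO, a change of 1.61 ± 0.13. ZNF417 changed by 1.62 ± 0.13 and ZNF268, a KRAB protein, by 1.504 ± 0.15, while a second ZNF268 probe gave 0.24 and did not pass. All 10 rises stayed past the threshold under median scaling.

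**Figure D2:**
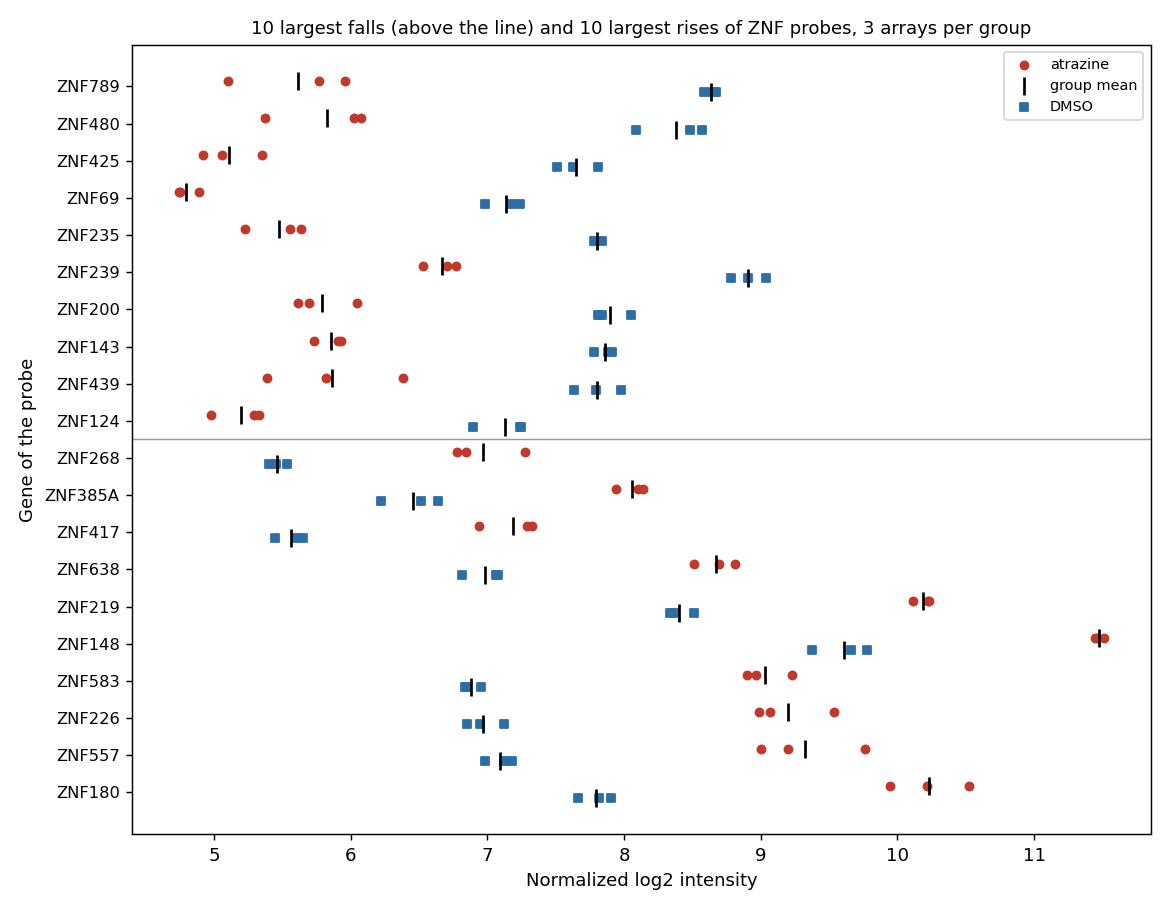
Normalized log2 intensity on each array for the 10 largest falls (above the line) and the 10 largest rises (below it); red circles are the 3 atrazine arrays, blue squares the 3 DMSO arrays and black bars group means. No row has overlapping groups, from ZNF789 at -3.03 to ZNF180 at 2.43.

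The 5 brightest ZNF probes in DMSO were mixed, with 2 falls, 1 rise and 2 not past. ZNF512 had 11.27, 11.45 and 11.52 in atrazine, against 11.85, 11.61 and 11.61 in DMSO, a change of -0.27 ± 0.12 (SE) that did not pass (limma adjusted p = 0.074). ZNF14 changed by -1.01 ± 0.29 (limma adjusted p = 0.016), but no longer passed without DMSO array 1 (adjusted p = 0.054) or without DMSO array 2 (adjusted p = 0.059). ZNF664 changed by -0.65 ± 0.10 and passed. ZNF428 changed by 0.21 ± 0.12 and did not pass, and its direction reversed under median scaling, at -0.72. ZNF207, a spindle and kinetochore protein also known as BuGZ, had 11.74, 11.87 and 11.76 in atrazine, against 10.68, 10.62 and 10.59 in DMSO, and rose by 1.16 ± 0.09, but gave 0.15 under median scaling and did not pass there. A second ZNF207 probe gave -0.05.

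Loss of detection was set against probes of equal brightness, because ZNF probes were dim and dim probes leave detection first. On the atrazine arrays, 178 of the 331 members were detected on all 3, 47 on 2, 20 on 1 and 86 on none. The last group made up 26.0%, against 12.6% of the 11062 other named probes. When the other probes were weighted to the members' distribution over 10 bins of raw DMSO intensity, their share was 15.3%, so the difference was 10.7 percentage points. Array by array, 30.5% of the members were not detected on atrazine array 1, 46.2% on array 2 and 27.5% on array 3, against 19.5%, 32.6% and 16.9% of other probes at equal intensity. The members were ahead on each of the 3 arrays. Without atrazine array 2 the shares lost on both remaining arrays were 26.0% and 15.4%.

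The lost members lay mostly in the dim range. In the 5 dimmest bins 84 of 165 members were lost (50.9%), against 1362 of 4472 other probes (30.5%). In the 5 brightest bins 2 of 166 members were lost (1.20%), against 32 of 6590 (0.486%). These pooled shares of the other probes are not weighted to the members. In bin 6, 0 of 34 members and 22 of 672 others were lost, and in bin 7, 2 of 32 and 6 of 896. Bin 8 had 0 of 33 and 4 of 1053, and bins 9 and 10 had no loss. At equal intensity, 62.5% of the members fell, against 40.5% of other probes, and 12.1% rose, against 27.3%.

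**Figure D3:**
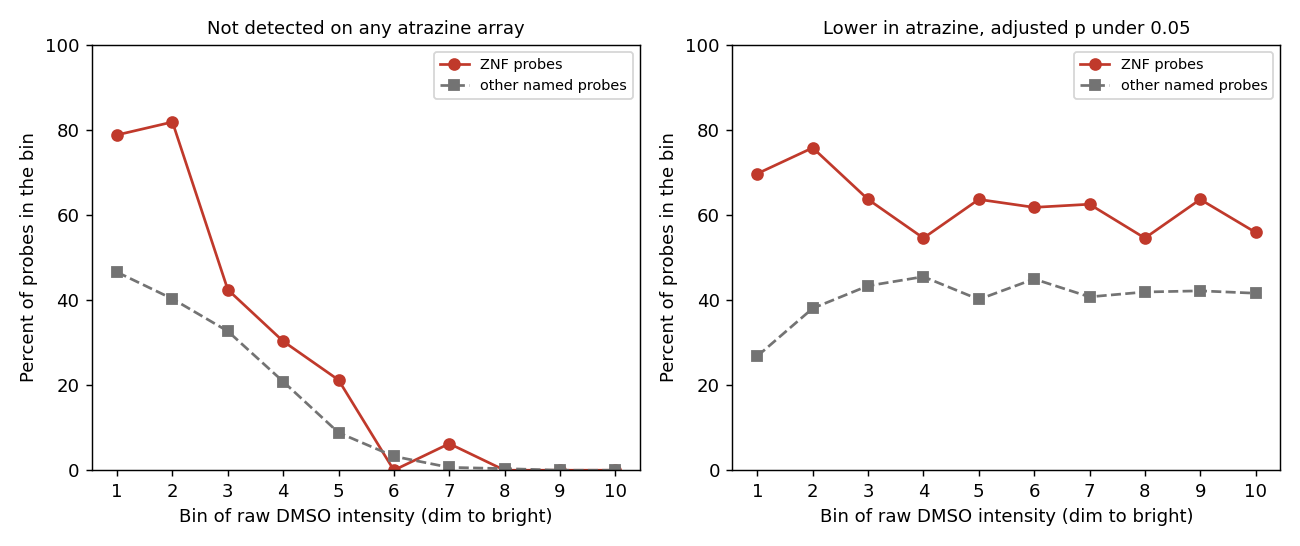
Percent of probes not detected on any atrazine array (left) and percent lower in atrazine at adjusted p under 0.05 (right) in each of 10 bins of raw DMSO intensity, from dim to bright, for ZNF probes (red circles) and other named probes (grey squares). In the 2 dimmest bins 78.8% and 81.8% of the ZNF probes were lost, against 46.5% and 40.3% of the others.

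Of the 86 lost members, 81 were called lower. A bound above 1 could be given for 49 of them, and it ran up to 3.75-fold with a median of 1.24-fold. With lost members set to their bound, the median change of all 331 was -0.29. No like value is given here for the other named probes. The 178 members detected on all 6 arrays held 77 falls and 39 rises with a median of -0.28, beside 2460 falls and 2724 rises with a median of -0.01 among 8115 other named probes detected on all 6.

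With the groups exchanged in the rule, 180 ZNF probes were detected on all 3 atrazine arrays, and 1 of them (0.556%) was detected on no DMSO array. Among 8500 other named probes the share was 1.78%, or 1.98% at equal atrazine intensity.

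Just inside the DMSO threshold stood ZNF157, ZNF580 and ZNF714, with a largest DMSO detection p of 0.0494 each. Just outside were ZNF607 at 0.0508, ZNF774 at 0.0537 and a second ZNF274 probe at 0.0551. All 6 were near background.

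KRAB repressors that have been studied on single targets or on retroelements mostly fell. Of 21 tested probes from this list, 16 fell, 2 rose and 3 did not pass, with a median of -0.70, and 6 were lost, beside falls in 62.5% of all ZNF members and in 39.6% of all tested probes. ZNF189 had 7.06, 6.64 and 7.04 in atrazine, against 8.57, 9.06 and 8.87 in DMSO, a change of -1.92 ± 0.17 (SE). ZNF649 was at least 1.37-fold lower, ZNF202 at least 1.55-fold lower and ZNF354A at least 2.24-fold lower. ZNF91 and ZNF93, which silence SVA and L1 elements in primates, both fell, ZNF91 by 1.02 on the log2 scale and a ZNF93 probe by 0.52, while the other ZNF93 probe was detected on no atrazine array and was at least 1.04-fold lower. ZNF274, which lays closed chromatin over the 3' ends of ZNF genes themselves, changed by -1.30 ± 0.32 (SE), with 7.27, 6.04 and 6.99 in atrazine, against 7.74, 8.40 and 8.05 in DMSO. ZNF10, the protein from which a widely used KRAB domain was taken, changed by -0.55, and ZNF350, a partner of BRCA1, by -1.22. ZNF224 rose by 0.32, with a value of -0.42 under median scaling, and ZNF268 is among the rises above. The ZNF10 call was lost in 4 of the 6 fits that left out 1 array, the ZNF224 call in 5 of the 6, the ZNF91 call without any DMSO array (adjusted p = 0.12 without DMSO array 2, where the change was -0.77), and the call of the ZNF93 probe with a measured change without DMSO array 1 (adjusted p = 0.061).

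Sequence-specific regulators of promoters, growth and neural genes had 5 falls and 5 rises in 16 probes and a median of -0.08. Over all tested probes there were 39.6% falls, 27.7% rises and a median of -0.18. Besides ZNF143, ZNF512B fell, by 1.68 on the log2 scale, and ZNF521, which restrains blood cell maturation, fell by 0.48. ZNF217, an oncogene product, rose by 0.47, and ZNF536, a repressor of neuronal differentiation, rose by 0.35. Under median scaling, however, these changes were -0.63 and -0.82. The other rises were ZNF148 and ZNF219, given above, and ZNF423, at 1.03 (limma adjusted p = 0.0006). The other falls were ZNF711, at -1.81 and detected on 1 atrazine array (limma adjusted p = 0.00048), and ZNF384, at -0.31 (limma adjusted p = 0.036). Refits of ZNF423, ZNF711 and ZNF384 are not given here. The ZNF521 call was lost without DMSO array 2 (adjusted p = 0.097, change -0.33), DMSO array 3 or atrazine array 1, and the ZNF536 call without DMSO array 3 (adjusted p = 0.051). RNA, ribosome and spindle proteins held 3 falls and 4 rises in 11 probes, with a median of -0.05, beside the same shares over all tested probes. ZNF346, which binds double-stranded RNA, changed by -0.79, ZNF593 and ZNF622, which act in ribosome maturation, by -0.35 and -0.34, and ZNF330 by 0.74, which became -0.49 under median scaling. The ZNF593 and ZNF622 calls did not hold in most fits that left out 1 array, with adjusted p-values from 0.053 to 0.094 where they were lost. The lists had been chosen with earlier results of these data known.

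The corepressor and heterochromatin genes that KRAB proteins work with had 11 falls, 9 rises and 12 not past in 32 probes and a median of -0.21, beside 39.6% falls, 27.7% rises and a median of -0.18 over all tested probes. Under median scaling 23 of the 32 fell and 4 rose, beside 68.5% falls and 15.3% rises over all tested probes. TRIM28 had 9.65, 9.92 and 9.56 in atrazine, against 9.70, 9.25 and 9.54 in DMSO, overlapping ranges with a change of 0.21 (limma adjusted p = 0.25). SETDB1 gave 0.27 (adjusted p = 0.087). Both turned negative under median scaling, TRIM28 at -1.03 and SETDB1 at -0.91. MPHOSPH8, a chromodomain protein of the HUSH silencing complex, was at least 4.47-fold lower. The HP1 genes CBX5 and CBX3 rose, by 2.21 and by 1.59 on the log2 scale for the probe of smallest p in each, and TASOR, another HUSH subunit, rose by 1.44. A second CBX3 probe gave 0.15 and did not pass.

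Markers of the cells' own type and of other types also moved, where 39.6% of all tested probes fell and 27.7% rose. Of 12 tested sympathoadrenal probes 8 fell and 2 rose, all 12 detected on every array, whereas HAND2 was detected on none of the 6. Of 9 mesenchymal and fibroblast probes 6 rose and 2 fell. COL1A1 rose by 2.43 on the log2 scale, 2 DCN probes gave 1.27 and 0.46, COL1A2 and the other DCN probe were lower and detected on no atrazine array, and COL3A1 and POSTN were detected on no array. Of 5 tested epithelial and immune probes 2 rose and 2 fell. A KRT18 probe rose by 1.13 on the log2 scale while the other was lower and detected on no atrazine array, and PTPRC was detected on all 3 atrazine arrays and on no DMSO array. The part of these markers in the ZNF results was not tested.

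Where a gene had several member probes, they were read side by side. In 15 such genes, every probe fell for 5 (ZNF398, ZNF644, ZNF688, ZNF789 and ZNF93), some fell for 4 and some rose for 5, while none passed for 1. No gene had calls in both directions.

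Chromosome 19 held 144 of the 331 probes, the most of any chromosome. There 95 fell (66.0%), 44 were lost (30.6%) and the median was -0.69. Elsewhere, 112 of 187 fell (59.9%), 42 were lost (22.5%) and the median was -0.51. Of the other named probes, 31.6% fell on chromosome 19 and 40.9% elsewhere. At equal intensity, here in 5 bins, 30.6% of chromosome 19 members were lost, against 11.5% of other probes there. Elsewhere 22.5% of the members were lost, against 14.3%.

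The counts were also taken by neighbourhood on chromosome 19. When members less than 500 kb apart were joined, 7 groups held 5 genes or more. In the group at chr19:51571283-53580269 (GRCh38.p14; ZNF175 to ZNF331), 21 of 23 probes fell and 1 rose, with a median of -0.99. In the group at chr19:55576774-56671757 (ZNF579 to ZNF835), 4 of 14 fell and 4 rose, with a median of 0.02. The group at chr19:43596392-44500522, which ends with ZNF180 and holds ZNF226 and ZNF235, had 8 falls and 4 rises in 18. In the remaining 4 groups, 55.6% to 73.1% of the probes fell. The grouping was made after the changes were seen, genes in a group share ancestry, and no test was made of the difference.

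**Figure D4:**
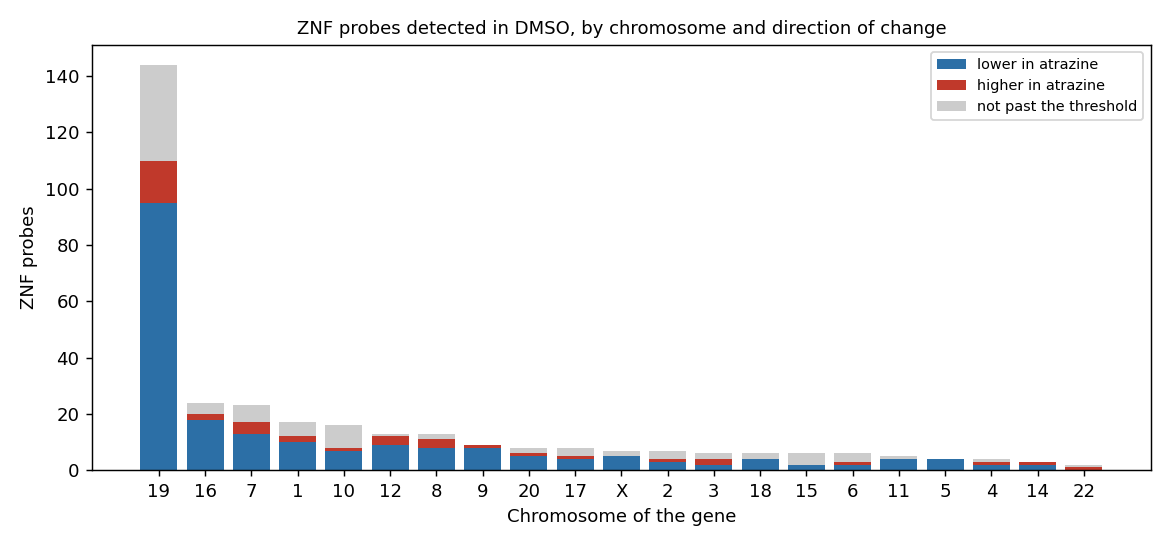
Number of ZNF probes by chromosome of the gene, split into lower in atrazine (blue), higher (red) and not past the threshold (grey). Chromosome 19 holds 144 probes, of which 95 are lower and 15 higher.

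ZNF69 and ZNF439 lie in the group at chr19:11483429-12633834, where 8 of 12 probes fell and none rose. Both are among the 10 largest falls, ZNF69 as a probe lost in atrazine that was at least 2.36-fold lower and ZNF439 with a change of -1.94. They are shown because their promoters are close copies. The 250 bases before each start (RefSeq, GRCh38.p14) were 86.3% identical in a global alignment, where the median over the 136 pairs of the 17 named genes with a promoter was 51.7%. How far the array's probes tell such copies apart was not analysed here.

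ZNF69 (fell; chr19:11887532-11887781, plus strand): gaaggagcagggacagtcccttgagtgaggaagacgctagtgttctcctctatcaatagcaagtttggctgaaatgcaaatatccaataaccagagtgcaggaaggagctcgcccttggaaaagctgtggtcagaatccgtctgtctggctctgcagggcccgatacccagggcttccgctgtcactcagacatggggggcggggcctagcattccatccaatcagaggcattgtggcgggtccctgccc
ZNF439 (fell; chr19:11848476-11848725, plus strand): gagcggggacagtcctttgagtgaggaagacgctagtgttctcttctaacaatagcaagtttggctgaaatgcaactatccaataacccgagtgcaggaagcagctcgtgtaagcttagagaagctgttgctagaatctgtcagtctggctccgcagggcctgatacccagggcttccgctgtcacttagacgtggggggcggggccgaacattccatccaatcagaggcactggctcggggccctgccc

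Promoters were searched for 15 short motifs on both strands, in 300-base windows (250 before to 50 after the start), which RefSeq gave for 268 of the 313 member genes. A gene counted where any of its windows held the letters. The ETS letters CCGGAAGT were in 19.4% of member genes, against 9.91% of 8325 other genes detected in DMSO and 4.95% of all 27305 genes. The ZNF143 letters ACTACAANT were in 6.34%, against 3.08% and 1.77%, and the NRF1 letters TGCGCANGC in 13.1%, against 9.99% and 5.28%. The Sp1 letters GGGCGGG ran the other way, at 47.0%, against 61.4% and 36.7%, as did TATAAA, at 3.73%, against 8.59% and 13.99%. The YY1 letters AAGATGGCG were in 4.85% and 4.79%. Also searched were the NF-Y letters CCAATC (in 27.6% of member genes, against 24.2% of the others), the CRE letters TGACGTCA (5.22%, against 3.86%), the E-box CACGTG (6.72%, against 13.4%) and the E2F letters TTTCGCG (4.10%, against 2.93%). The remaining runs were GTGACG (22.4%, against 20.8%), CTTTCCG (7.09%, against 7.12%), GGAAGTGA (6.72%, against 6.08%), CCTTCCG (9.70%, against 11.2%) and TCTCGCGA (1.49%, against 3.06%). Matches of the ETS letters can overlap those of GGAAGTGA, and matches of GTGACG those of the CRE letters. Member windows had a median of 22 CpG sites, against 25 in the other genes detected in DMSO.

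The direction of change was then set beside each motif, with no test. Of 56 member probes with the ETS letters 58.9% fell, against 63.04% of 230 without them. Other named probes went the other way, with falls in 49.5% of 918 with the ETS letters, against 40.4% of 8289 without them. Of 20 member probes with the ZNF143 letters 7 fell and 5 rose, against 171 falls and 30 rises in 266 without them, while 43.8% of 281 other named probes with these letters fell, against 41.2% of 8926 without them. Of 79 member probes with the NF-Y letters 70.9% fell and 3 rose, against 58.9% and 32 of 207 without them. With the NRF1 letters 70.3% of 37 member probes fell, against 61.0% of 249. Among other named probes, 41.9% of 2247 with the NF-Y letters fell, against 41.1% of 6960 without them. For the NRF1 letters these shares were 45.1% of 932 and 40.9% of 8275. Over the other 11 motifs the share of member probes with the letters that fell ran from 50% to 76.9%, in sets of 4 to 139 probes. Among other named probes with the letters these shares ran from 38.6% to 48.6%. These splits were among 15 looked at, and the 20 probes with the ZNF143 letters were brighter in DMSO, at a median raw intensity of 482 against 300 for those without.

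The 4 promoters below (250 bases before the start) come from 1 gene that fell and 3 that rose, and are shown because the ETS letters occur with both directions and the ZNF143 letters occur in 2 of the 10 largest rises. Capitals mark CCGGAAGT or ACTACAANT on either strand.

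ZNF239 (fell; chr10:43574617-43574866, minus strand): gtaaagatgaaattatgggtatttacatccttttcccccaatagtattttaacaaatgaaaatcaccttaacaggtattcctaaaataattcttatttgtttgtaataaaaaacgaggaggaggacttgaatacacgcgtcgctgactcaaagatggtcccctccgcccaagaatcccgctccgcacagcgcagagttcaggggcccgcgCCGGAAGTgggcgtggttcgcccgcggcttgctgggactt
ZNF180 (rose; chr19:44500523-44500772, minus strand): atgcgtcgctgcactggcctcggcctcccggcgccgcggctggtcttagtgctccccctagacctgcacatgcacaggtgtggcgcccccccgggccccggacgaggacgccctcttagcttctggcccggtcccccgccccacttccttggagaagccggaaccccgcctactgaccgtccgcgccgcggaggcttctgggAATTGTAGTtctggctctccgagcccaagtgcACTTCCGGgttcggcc
ZNF226 (rose; chr19:44164850-44165099, plus strand): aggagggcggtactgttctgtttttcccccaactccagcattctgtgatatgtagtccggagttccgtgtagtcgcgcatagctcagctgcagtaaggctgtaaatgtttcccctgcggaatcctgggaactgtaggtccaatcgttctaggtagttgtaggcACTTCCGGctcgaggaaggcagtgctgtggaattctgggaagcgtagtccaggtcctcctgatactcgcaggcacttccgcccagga
ZNF268 (rose; chr12:133181245-133181494, plus strand): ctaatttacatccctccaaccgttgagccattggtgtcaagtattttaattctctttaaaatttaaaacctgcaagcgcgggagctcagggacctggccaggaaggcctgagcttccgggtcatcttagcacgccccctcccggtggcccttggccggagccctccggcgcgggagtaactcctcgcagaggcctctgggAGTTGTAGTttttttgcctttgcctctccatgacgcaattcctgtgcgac

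ZNF239 and ZNF226 both hold the ETS letters and moved in opposite directions. ZNF180 and ZNF268, both among the 10 largest rises, hold the ZNF143 letters, in the reverse orientation. Over all 20 member probes with these letters, 7 fell and 5 rose, and ZNF189, which holds them, changed by -1.92. ZNF143 itself is among the 10 largest falls, and any link between it and these genes was not tested. A match is a run of letters and says nothing of binding.

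Zinc finger genes with other names were also mostly lower. Of 63 probes with ZFP, ZSCAN, ZKSCAN or ZBTB symbols that were detected on all 3 DMSO arrays, 39 fell (61.9%), 5 rose (7.94%) and 17 were lost (27.0%), with a median of -0.52, against 40.4%, 25.4% and 12.6% of the other named probes. The lost probes were 6 of 14 for ZFP, 6 of 14 for ZSCAN, 1 of 8 for ZKSCAN and 4 of 27 for ZBTB. These shares were not taken at equal intensity. The set of 63 probes was chosen after the ZNF values were seen.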

How the data were processed

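Total RNA of SH-SY5Y cells was labelled as biotinylated cRNA for Illumina arrays, per the labels' protocols. The authors deposited raw intensity for 22184 probes on 6 arrays with a detection p-value beside each value, per the file headers, and a second table of intensity that the values show to be quantile normalized. The scanner software and chip positions are not given in the sources used here. Gene names came from the platform annotation in the reference tables.

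In R 4.3.3 with limma 3.58.1, raw intensities were background corrected (normexp, background inferred from detection p-values, offset 16), quantile normalized and taken to log2, each probe as its own feature. The 12969 probes that every array of the atrazine group, the DMSO group or both detected (p under 0.05) were tested with lmFit and eBayes, two-sided, with Benjamini-Hochberg adjustment at 0.05. An exact test of 3 arrays against 3 cannot go below 0.1. The number of arrays limits the precision. On data simulated for this comparison the procedure called most planted 2-fold and 4-fold changes in the right direction. Those data were drawn at DMSO brightness with few changed probes. The real atrazine arrays were dimmer, and 39.6% of all tested probes fell and 27.7% rose. The simulation therefore cannot tell how the procedure performs on such arrays, and its rate of false calls is not given here. No sample was left out, and 0 columns belonged to other samples.

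Equal-intensity shares weight the other named probes to the members' counts in 10 bins of mean log2 raw DMSO intensity, or 5 bins by chromosome. These shares carry no test. The dimmest and brightest bins are open-ended for the other probes, so intensity there is only roughly equal. The brightest of the 10 bins held 34 members and 2842 other probes. Promoters were those of RefSeq on GRCh38.p14, in the gene's orientation.

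The members, gene lists and rules were chosen with earlier results of these data known. Named probes are the 10 largest falls and rises past the threshold with groups that do not overlap, the 5 brightest in DMSO, the 5 brightest lost, up to 3 of smallest p in each list with members of described role, the probes nearest the threshold, and TRIM28 and SETDB1. The remaining calls among the sequence-specific regulators are given too.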

Additional observations from a re-analysis of the deposited data

Results flagged for a closer look

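ZNF467 and ZNF624 lie outside the members, since neither was detected on all 3 DMSO arrays, yet both were detected on all 3 atrazine arrays. ZNF467 had normalized values of 7.54, 7.76 and 7.43 in atrazine, against 5.23, 5.85 and 5.92 in DMSO, where 2 arrays detected it, a change of 1.91 (limma adjusted p = 0.00015). ZNF624 had 5.90, 6.49 and 6.25 in atrazine, against 5.30, 5.24 and 5.19 in DMSO, where no array detected it, a change of 0.97 (limma adjusted p = 0.0011). They are the ZNF probes that the DMSO rule passes over and that atrazine arrays detect throughout.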

How the results depend on the processing

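The median change of the ZNF probes stayed negative under every alternative run. It was -0.44 without background correction, -0.39 with an offset of 50, -0.47 with the authors' processed intensities and -1.05 with median scaling. With each array left out in turn it was -0.50 to -0.63. Under median scaling 266 ZNF probes (80.4%) fell and 16 (4.83%) rose. Over all tested probes the shares there were 68.5% and 15.3%, with a median of -0.90. Among the other named probes chosen by the DMSO rule they were 71.2% and 12.2%, with a median of -0.95. With detection p under 0.01 on all 6 arrays, which leaves 102 members, 41 fell, 27 rose and the median was -0.14. Over all probes in that fit 30.5% fell and 34.0% rose, with a median of 0.003. There 13 of 21 corepressor probes passed, 6 lower and 7 higher. The share of members' calls that were rises was 16.2% in the reported fit and 5.67% with median scaling. Over all tested probes this share also dropped, from 41.2% to 18.2%. Loss on all 3 atrazine arrays was 47.2%, against 35.7% of other probes at equal intensity, with a detection threshold of 0.01, where 0 of 103 ZNF probes detected in atrazine were undetected in DMSO. Counting loss on at least 1 array gave 46.2%, against 33.0%, and 1.11% with the groups exchanged. With 20 bins the other probes' share was 15.2%. Replicate numbers did not pair the samples, since same-numbered arrays deviated with correlations of -0.17, -0.44 and -0.29. A fit with the replicate block gave 182 falls and 33 rises among the ZNF probes, beside 34.2% falls and 24.4% rises over all tested probes. Over 51 named probes, 686 of 735 refits kept direction and side of the threshold, 39 lost the call and 3 gained it. The other 7 reversed, all under median scaling: ZNF428 at -0.72, ZNF217 at -0.63, ZNF224 at -0.42, ZNF330 at -0.49, ZNF536 at -0.82, SETDB1 at -0.91 and TRIM28 at -1.03. The replicate block ended the calls of ZNF10, ZNF91, ZNF224, ZNF521, ZNF536, ZNF593 and ZNF622. Values near background limit what can be said of the lost probes beyond a bound.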
